A study of Homo sapiens with 9 samples.

Results

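Genes that lie within 1000 bases of their neighbour were examined as pairs in RNA sequencing libraries of MDA-MB-231 cells depleted of CTDP1. Expressed intervals, those with at least 1 TPM (a length-corrected transcript abundance whose sum is fixed for each library) in at least 3 of the 9 libraries, were sorted by start on each autosome. Neighbours formed a close pair where the gap between the end of one and the start of the next was 1 to 1000 bases. The rule gave 1295 close pairs among 13832 neighbouring pairs on the 22 autosomes, of which 10847 did not overlap. The close pairs held 2456 of the 13854 expressed autosomal intervals. The comparison set was the 1329 pairs whose gap was 1001 to 5000 bases. The rule used position and the level needed to count as expressed, and no difference between groups.

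MDA-MB-231 is an established human triple-negative breast cancer line with mesenchymal features. Cells carried a lentiviral short hairpin RNA, either a scrambled one (shScr) or shCTDP1-#1 or shCTDP1-#2, which both target CTDP1, with 3 libraries in each group. All groups, the control included, were infected with virus made in 293FT cells and selected with puromycin, and no uninfected group was analysed here. Whether the 3 libraries of each group stem from different cultures is not in the labels, so p-values here reflect library-to-library spread that could be technical. All 3 groups derive from 1 cell line.

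Neighbouring genes can share regulatory DNA. Where they point away from each other (divergent), the short stretch between their starts can serve as the promoter of both. Where both point the same way (tandem), or towards each other (convergent), RNA polymerase II that passes the end of one gene can run into the other. CTDP1 is a phosphatase that acts on the C-terminal domain of the large subunit of RNA polymerase II, the tail whose phosphorylation changes as the enzyme starts, elongates and ends a transcript. The files give no strand, and the library kit, as background, does not mark it, so shared promoters and readthrough could be separated only at loci whose gene orientation is known. Reads from overlapping or antisense genes cannot be told apart for the same reason.

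Sequence between the starts of divergent pairs is shown first, because it is what both members of such a pair have in common. These stretches come from RefSeq on GRCh38.p14, not from the hg19 build of the files, and run 5′ to 3′ on the plus strand from the start of the left gene to that of the right gene. Their lengths can therefore differ from the gaps between the hg19 intervals. Capitals mark matches, on either strand, to the TATA box TATAAA, the CCAAT box CCAAT, the octamer ATTTGCAT, the GC box GGGCGG and the ETS motif CCGGAAG. Letters of different motifs overlapped in none of the 6 stretches, whereas the TATAAA matches on both strands overlapped once, between HIST1H2BJ and HIST1H2AG.
HIST1H2BJ and HIST1H2AG, chr6:27132796-27133042: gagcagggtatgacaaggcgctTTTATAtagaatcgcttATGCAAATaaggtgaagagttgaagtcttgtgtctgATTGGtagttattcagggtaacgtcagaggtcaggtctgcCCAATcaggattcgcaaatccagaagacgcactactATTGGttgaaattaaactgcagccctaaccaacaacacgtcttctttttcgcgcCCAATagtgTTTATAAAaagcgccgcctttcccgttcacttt
HIST1H2BC and HIST1H2AC, chr6:26123927-26124171: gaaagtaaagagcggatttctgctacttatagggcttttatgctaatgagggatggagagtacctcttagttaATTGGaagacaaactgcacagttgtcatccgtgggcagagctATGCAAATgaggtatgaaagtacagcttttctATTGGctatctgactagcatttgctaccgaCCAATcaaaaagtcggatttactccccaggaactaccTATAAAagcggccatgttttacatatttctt
HIST1H2AM and HIST1H2BO, chr6:27893186-27893424: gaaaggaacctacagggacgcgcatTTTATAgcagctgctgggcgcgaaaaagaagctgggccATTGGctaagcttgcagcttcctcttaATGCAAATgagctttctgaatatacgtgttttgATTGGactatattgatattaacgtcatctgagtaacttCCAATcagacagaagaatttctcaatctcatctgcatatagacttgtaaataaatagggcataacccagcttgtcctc
DCAF16 and NCAPG, chr4:17810758-17810978: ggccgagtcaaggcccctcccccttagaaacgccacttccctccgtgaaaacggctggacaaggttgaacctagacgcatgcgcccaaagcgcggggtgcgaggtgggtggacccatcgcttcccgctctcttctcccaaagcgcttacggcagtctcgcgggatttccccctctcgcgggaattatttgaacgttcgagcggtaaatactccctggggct
ZBTB4 and POLR2A, chr17:7484250-7484365: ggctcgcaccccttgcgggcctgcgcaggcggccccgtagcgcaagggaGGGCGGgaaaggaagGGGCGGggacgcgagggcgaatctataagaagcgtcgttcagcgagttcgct
SRSF9 and DYNLL1, chr12:120469749-120469841: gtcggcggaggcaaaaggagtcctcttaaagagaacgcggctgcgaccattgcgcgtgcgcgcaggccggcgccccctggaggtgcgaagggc

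The 3 histone stretches each held 1 octamer match and 3 or 4 CCAAT matches, and each had at least 1 TATAAA match. Their GC content was 40.8% to 43.7%. The octamer was found in 1.77% of 35116 RefSeq promoter windows of 300 bases, CCAAT in 34.6% and TATAAA in 11.5%. The stretch between ZBTB4 and POLR2A, whose members moved apart, held 2 GGGCGG matches, a motif found in 44.95% of the windows, and had a GC content of 69.0%. The stretches of DCAF16 and NCAPG, which fell together, and of SRSF9 and DYNLL1, which did not, held no match to any of the 5 motifs, CCGGAAG included (10.3% of windows). A match describes letters only.

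CTDP1 itself measured 13.1, 12.4 and 12.01 TPM in shScr, 2.46, 2.62 and 2.46 TPM in shCTDP1-#1, and 3.77, 3.42 and 4.1 TPM in shCTDP1-#2, replicates 1 to 3 in that order here and below. The log2 change was -1.94 ± 0.10 (SE) with shCTDP1-#1 and -1.50 ± 0.10 with shCTDP1-#2 (limma adjusted p = 6.29e-08 and 3.99e-07), and no knockdown library overlapped the controls. These are bulk libraries, in which fewer cells of a type and less RNA per cell cannot be told apart. Of the markers looked up at known loci, VIM (3523 to 3641 TPM in shScr) and CD44 (864 to 905 TPM) were abundant and EGFR measured 41.9 to 49.96 TPM, while ESR1 and PGR stayed at or below 0.13 and 0.27 TPM in every library. ERBB2 (25.1 to 28.9 TPM) and EPCAM (6.16 to 9.81 TPM) were also present in shScr. With shCTDP1-#1 and shCTDP1-#2, VIM measured 1422 to 1513 and 2015 to 2139 TPM, CD44 707 to 766 and 939 to 1006 TPM, and EGFR 57.6 to 81.6 and 46.6 to 57.8 TPM. ERBB2 measured 25.2 to 27.3 and 13.2 to 14.9 TPM, and EPCAM 9.27 to 12.9 and 6.54 to 8.07 TPM. Mitochondrial transcripts took 4.49% of the TPM of shScr replicate 1 and 1.12% to 2.29% of the other 8 libraries.

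Close pairs were made of somewhat short and abundant intervals. The median gap was 211 bases (quartiles 93 and 489). The median length of the members was 19137 bases, against 27272 for all expressed autosomal intervals, and their median level was 23.7 TPM against 17.3 TPM. The members held 18.2% to 18.9% of the TPM of a library, and the shScr libraries spanned the range of both knockdown groups. Chromosomes 17, 16 and 11 were densest in close pairs, with 12.4, 12.1 and 12.1 per 100 expressed intervals, and chromosome 5 was sparsest with 6.98. Members of different pairs were not always distinct: 134 intervals belonged to 2 close pairs, and the longest chain held 4 pairs. In 320 pairs no other interval of the files overlapped the gap or either member. Some members counted as expressed through 1 group alone: 3 reached 1 TPM only in the 3 libraries of shScr, 6 only in those of shCTDP1-#1 and 16 only in those of shCTDP1-#2. Members that passed through a mix of libraries of both hairpins are not in these counts. In each shScr library 2218 to 2233 members reached 1 TPM, against 2347 to 2383 in each knockdown library. More members were thus under 1 TPM in shScr than with either hairpin. Because 6 of the 9 libraries are knockdown libraries, the filter itself favours such members. The same counts over all expressed intervals are not given, so this does not show a trait of close pairs.

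Most members changed with each hairpin, as most tested intervals did. With shCTDP1-#1, 970 members were higher and 659 lower at a limma adjusted p under 0.05 on log2(TPM + 1), which is 66.3% of the members against 63.1% of the 15011 intervals tested. With shCTDP1-#2, 1098 were higher and 577 lower, 68.2% against 64%. The median log2 change of the members was 0.11 with shCTDP1-#1 and 0.18 with shCTDP1-#2, against 0.07 and 0.13 over all tested intervals. The excess of higher calls depends on the scaling: under median-of-ratios scaling, which moved the median of all tested intervals by -0.07 and -0.13, 867 members were higher and 776 lower with shCTDP1-#1, and 867 higher and 772 lower with shCTDP1-#2. Between the hairpins, 799 members were higher and 499 lower with shCTDP1-#2 than with shCTDP1-#1 (52.9%, against 50.2% of tested intervals, 30.2% higher and 20% lower). This direction turned under upper-quartile scaling, with 574 higher and 686 lower.

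The central question was whether close neighbours moved together. With shCTDP1-#1, both members were called in 591 close pairs. In 331 of these they moved in the same direction, 225 both higher and 106 both lower, and in 260 they moved in opposite directions. Both members were higher in 13.3% and both lower in 8.86% of all 10847 non-overlapping neighbouring pairs. Same-direction pairs made up 25.6% of the close pairs, against 22.1% of all 10847 non-overlapping neighbouring pairs, and opposite pairs 20.1% against 19.9%. Agreement among pairs with both members called was thus 56.0%. It was 55.6% (304 of 547) in pairs 1001 to 5000 bases apart and 51.7% (1765 of 3416) in pairs farther apart.

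With shCTDP1-#2, both members were called in 614 close pairs, 281 both higher, 85 both lower and 248 in opposite directions. Over all non-overlapping pairs, 16.1% were both higher and 7.37% both lower. Same-direction pairs were 28.3% of the close pairs, against 23.5% of all non-overlapping pairs, and opposite pairs 19.2% against 19.2%. Agreement was 59.6% in close pairs, 57.5% (343 of 597) at 1001 to 5000 bases and 53.7% (1836 of 3416) beyond. Of the called members of close pairs, 59.5% were higher with shCTDP1-#1 and 65.6% with shCTDP1-#2. Such an excess of calls in 1 direction raises agreement even between unrelated members, and the shares are not corrected for it. Median-of-ratios scaling changed the make-up of the same-direction pairs to 190 both higher and 143 both lower with shCTDP1-#2. With shCTDP1-#1 it gave 187 and 134. Agreement under this scaling was 53.9% in close pairs with shCTDP1-#1, against 54.3% at 1001 to 5000 bases. With shCTDP1-#2 it was 56.4% against 55.5%. Upper-quartile scaling gave 59.1% against 55.3%, and 56.7% against 54.3%. Intervals with a mean of at least 5 TPM gave 53.5% against 52.3%, and 54.6% against 55.5%. The order of the 2 distance classes thus depended on the processing. The difference in agreement between close pairs and pairs 1001 to 5000 bases apart was not tested, since pairs are not replicates. Both comparisons share the 3 shScr libraries. Tested against a 1.5-fold change, both members were called in 28 close pairs with shCTDP1-#1 (18 in the same direction) and in 31 with shCTDP1-#2 (24), and in 26 (18) and 35 (26) pairs 1001 to 5000 bases apart.

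**Figure D1:**
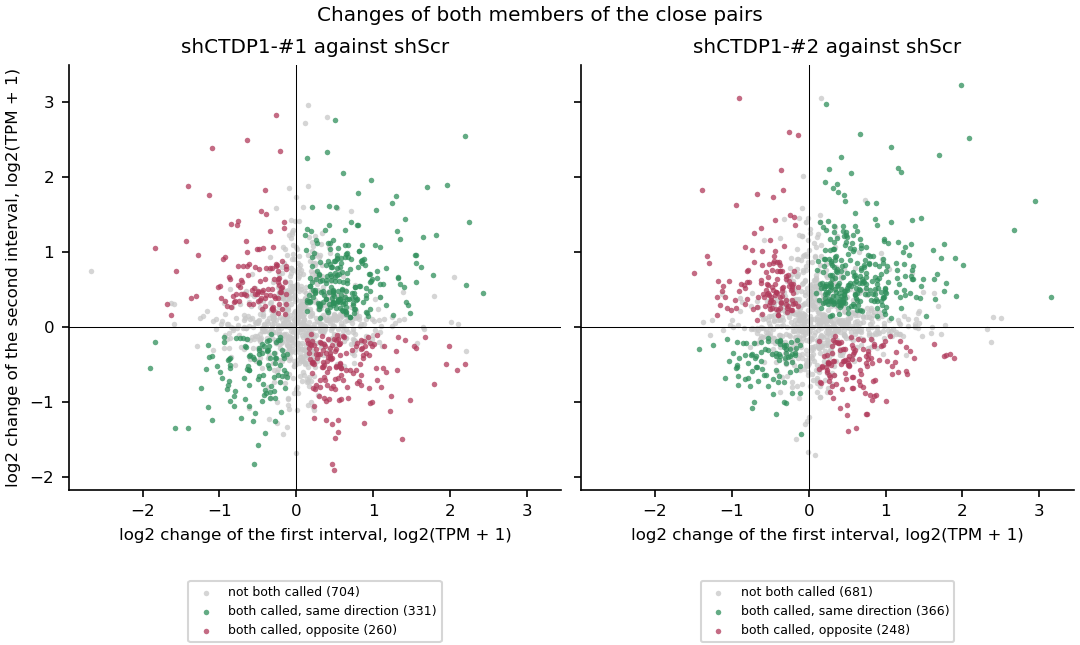
Log2 change (log2(TPM + 1) scale) of the first interval of each of the 1295 close pairs (horizontal) and of the second (vertical), for each CTDP1 hairpin against shScr. Green points are pairs with both members called in 1 direction (331 and 366), red points pairs called in opposite directions (260 and 248), and grey points all others; all 4 quadrants are filled.

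Across close pairs the log2 changes of the 2 members were weakly correlated, with Pearson's r = 0.09 over 1295 pairs for shCTDP1-#1 and 0.11 for shCTDP1-#2. Pairs 1001 to 5000 bases apart gave 0.10 and 0.12 over 1329 pairs, and pairs farther apart 0.05 with both. These are descriptions over pairs that share the same libraries and, in part, the same intervals. Taken 1 knockdown library at a time against the shScr mean, r in close pairs was 0.08 to 0.10 with shCTDP1-#1 and 0.09 to 0.11 with shCTDP1-#2. The corresponding ranges at 1001 to 5000 bases were 0.08 to 0.11 and 0.10 to 0.13, so the 2 distance classes overlapped with both hairpins. Deviations of a library from its own group mean, which owe nothing to the groups, correlated within close pairs by -0.01 to 0.09 over the 9 libraries, and by -0.02 to 0.08 at 1001 to 5000 bases. Where no other interval overlapped the pair, agreement was 51.6% (82 of 159 pairs) with shCTDP1-#1 and 62.3% (101 of 162) with shCTDP1-#2, and r was 0.09 and 0.18. The same restriction at 1001 to 5000 bases gave 63.1% (77 of 122) and 60.4% (84 of 139), with r of 0.10 and 0.13.

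Directly tested, the 2 members of a pair often changed by unequal amounts. The difference of their log2 values was fitted with limma over all 10847 non-overlapping pairs. It passed an adjusted p of 0.05 in 794 close pairs with shCTDP1-#1 (61.3%, against 61.4% of all non-overlapping pairs) and in 812 with shCTDP1-#2 (62.7%, against 59.4%). At 1001 to 5000 bases the shares were 59.2% and 57.6%. The median absolute difference of log2 change within close pairs was 0.51 and 0.53, and at 1001 to 5000 bases 0.51 and 0.49. Against a fold of 1.5, unequal change was called in 273 close pairs with shCTDP1-#1 (21.1%, against 22.4% of all non-overlapping pairs) and in 282 with shCTDP1-#2 (21.8%, against 21%). At 1001 to 5000 bases it was called in 258 (19.4%) and 273 pairs (20.5%).

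Agreement did not rise steadily as the gap shrank. Pairs 201 to 400 bases apart agreed in 68.3% (86 of 126) with shCTDP1-#1 and 66.9% (91 of 136) with shCTDP1-#2, with r = 0.23 and 0.26 over 275 pairs. Without the 5 pairs of that bin in the histone gene cluster of chromosome 6 (26 to 28 Mb), r was 0.17 and 0.16. Pairs 51 to 100 bases apart agreed in 47.0% (39 of 83) and 54.5% (48 of 88), with r = -0.07 and -0.06. For the nearest neighbours, 1 to 50 bases apart, the hairpins gave different values, 51.9% with r = 0.01 for shCTDP1-#1 and 60.3% with r = 0.19 for shCTDP1-#2. The bins were not tested against each other.

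**Figure D2:**
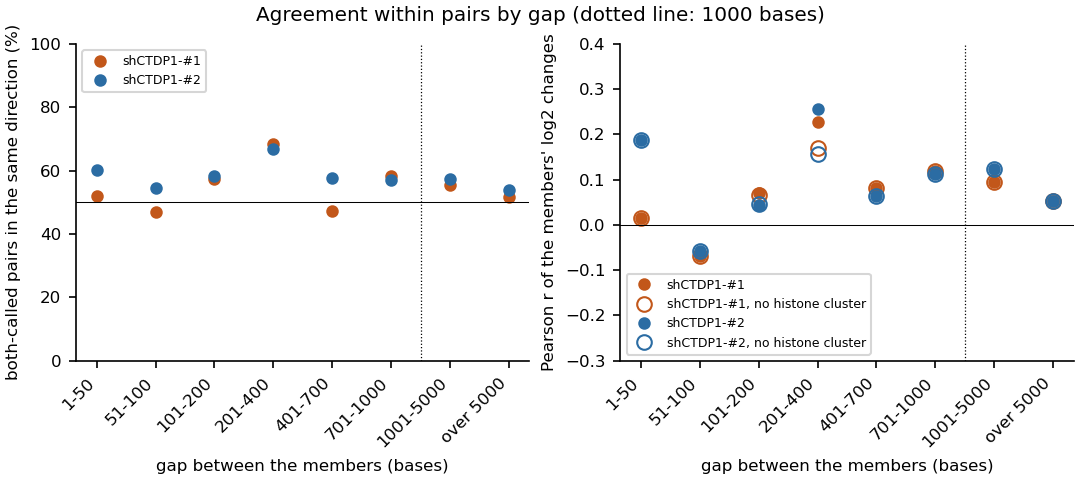
Left, share of pairs with both members called that moved in the same direction (percent), and right, Pearson's r of the members' log2 changes, by gap in bases, for each hairpin against shScr. Open circles leave out the histone gene cluster of chromosome 6. Among filled circles the 201 to 400 base bin is highest in both panels, at 68.3% and 66.9% and at r = 0.23 and 0.26. Among open circles it stays highest for shCTDP1-#1 (r = 0.17). For shCTDP1-#2 it is at 0.16, under the 0.19 of the 1 to 50 base bin. The horizontal line on the left marks equal numbers of agreeing and opposite pairs and does not allow for the excess of higher calls.

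Levels within close pairs were only weakly correlated. Over close pairs, r of the log2(TPM + 1) levels was 0.02 to 0.05 in every library, and 0.07 to 0.08 at 1001 to 5000 bases. It was 0.025 ± 0.002 (SD, n = 3) in shScr, 0.042 ± 0.008 with shCTDP1-#1 and 0.022 ± 0.002 with shCTDP1-#2. In exact two-sided permutation tests over libraries, p was 0.1 for shCTDP1-#1 and 0.2 for shCTDP1-#2 against shScr, and 0.1 between the hairpins (adjusted over the 3 tests, 0.15, 0.2 and 0.15). A design of 3 libraries against 3 cannot give a p below 0.1. The median absolute difference of log2 levels within close pairs was 2.06 to 2.11 in the shScr libraries and 1.88 to 1.92 in the 6 knockdown libraries. At 1001 to 5000 bases the ranges were 2.01 to 2.05 and 1.99 to 2.03, and beyond 5000 bases 1.99 to 2.00 and 1.94 to 1.96. The knockdown and shScr ranges did not overlap in close pairs or beyond 5000 bases. The expression filter took any 3 of the 9 libraries, so members low in shScr could enter through the 6 knockdown libraries. Members at 0 numbered 27 to 35 in the shScr libraries and 8 to 17 in the knockdown libraries. Such members can widen the differences in shScr, and their part in this separation was not tested.

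Agreement was also counted by how far apart the members lay in level. In 437 close pairs the shScr means lay at least 10-fold apart, and 56.9% of the 174 called pairs among them moved in the same direction under shCTDP1-#1 and 64.1% of 192 under shCTDP1-#2. Among the other close pairs the shares were 55.6% of 417 and 57.6% of 422. The order of the members was the same in all 3 shScr libraries in 1226 close pairs. It turned in all 3 libraries of the hairpin in 54 of these with shCTDP1-#1 and in 58 with shCTDP1-#2. Turned orders were not counted in pairs farther apart, so these counts do not show a trait of close pairs.

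**Figure D3:**
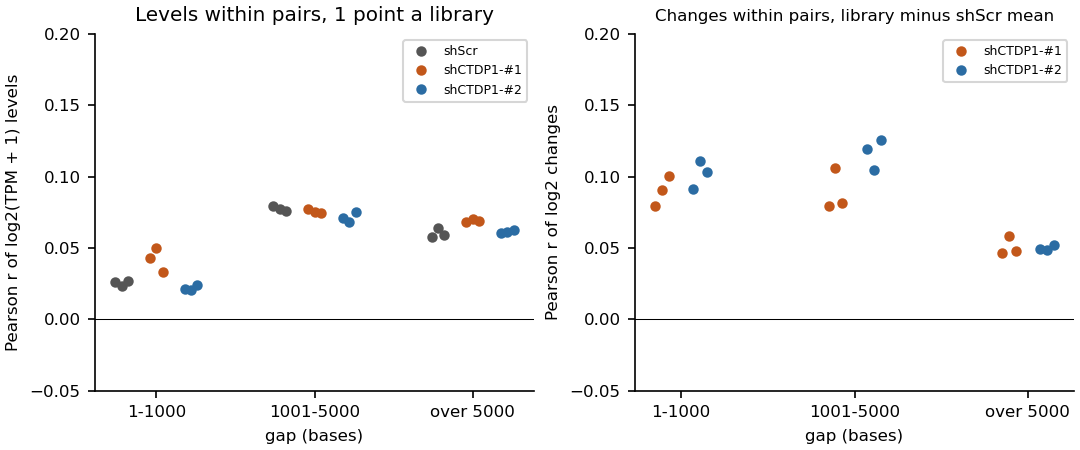
Pearson's r within pairs for each library (1 point each) by gap class: left, log2(TPM + 1) levels in all 9 libraries, and right, log2 changes of the 6 knockdown libraries against the shScr mean. Close pairs sit lowest for levels (0.02 to 0.05) and overlap with pairs 1001 to 5000 bases apart for changes.

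Individual loci show what these shares are made of. The 23 pairs below were named from the known hg19 position of their genes, since the files carry no names, and their strands come from GENCODE v29 or RefSeq. At 19 of them another interval of the files overlaps the gap or a member. Of them, 15 were divergent, 4 tandem and 4 convergent. The first 4 pairs were taken from the top of each list of pairs whose members rose together, fell together or moved apart with both hairpins, with means of at least 5 TPM and no overlap with shScr. Those lists held 82, 26 and 88 close pairs, or 6.33%, 2.01% and 6.80% of them, and the same criteria were met by 4.2%, 2.42% and 5.86% of all non-overlapping pairs. Because these were ranked by their change, their values are a description and carry no test of the change itself. Changes are log2 changes ± SE on the log2(TPM + 1) scale, and a difference within a pair is the change of the second gene along the chromosome minus that of the first.

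The 3 histone pairs that headed the list of rising pairs each join a gene for the core histone type 2A to one for type 2B, proteins that dimerise in the nucleosome. HIST1H2BJ (chr6:27093676-27100541) measured 8.54, 10.2 and 12.7 TPM in shScr, 43.9, 39.1 and 47.1 TPM in shCTDP1-#1, and 42.5, 43.7 and 45.98 TPM in shCTDP1-#2. Its divergent neighbour HIST1H2AG (chr6:27100832-27103070), 290 bases away, measured 1.28, 1.69 and 1.17 TPM in shScr, 7.52, 7.85 and 8 TPM in shCTDP1-#1, and 20.6, 20.3 and 22.9 TPM in shCTDP1-#2. Every knockdown library exceeded every control library in both genes, and HIST1H2AG was higher again with shCTDP1-#2 than with shCTDP1-#1. The log2 changes were 1.96 ± 0.12 and 1.89 ± 0.10 (SE) with shCTDP1-#1, and 1.99 ± 0.12 and 3.23 ± 0.10 with shCTDP1-#2. The change was unequal within the pair for shCTDP1-#2 (difference 1.24 ± 0.17, limma adjusted p = 9.76e-05). For shCTDP1-#1 the difference was -0.07 ± 0.17 (adjusted p = 0.731). HIST1H2AG had a mean of only 1.38 TPM in shScr, where the log2(TPM + 1) scale understates its rise. The difference for shCTDP1-#1 thus does not show equal fold changes of TPM.

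HIST1H2BC (chr6:26115101-26124154) measured 6.74, 8.19 and 6.79 TPM in shScr, 37.9, 36.8 and 39.04 TPM in shCTDP1-#1, and 69.2, 53.9 and 63.8 TPM in shCTDP1-#2. HIST1H2AC (chr6:26124373-26139344), 218 bases on, measured 31.2, 34.4 and 30.1 TPM in shScr, 81.98, 86.5 and 88.3 TPM in shCTDP1-#1, and 100.08, 115 and 98.3 TPM in shCTDP1-#2. Neither gene's knockdown libraries reached down to the controls, and the less abundant HIST1H2BC rose more, by a log2 change of 2.24 ± 0.10 and 2.94 ± 0.10 against 1.40 ± 0.07 and 1.68 ± 0.07. HIST1H2AM (chr6:27860477-27860963) measured 3.55, 4.02 and 4.63 TPM in shScr, 14.2, 16.8 and 19.8 TPM in shCTDP1-#1, and 13.7, 14.9 and 17.6 TPM in shCTDP1-#2. HIST1H2BO (chr6:27861203-27861669), 239 bases away, measured 4.12, 3.09 and 5.73 TPM in shScr, 10.9, 12.4 and 10.3 TPM in shCTDP1-#1, and 20.9, 25.3 and 27.5 TPM in shCTDP1-#2. Which member of this pair rose more depended on the hairpin: the difference of log2 change, HIST1H2BO minus HIST1H2AM, was -0.59 ± 0.19 with shCTDP1-#1 and 0.59 ± 0.19 with shCTDP1-#2, and it differed between the hairpins by 1.18 ± 0.19 (limma adjusted p = 0.000515).

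The close pairs between 26 and 28 Mb on chromosome 6 numbered 7. Of their 14 members, 10 were higher with each hairpin and none lower in limma. Of all tested intervals, 35.4% and 39.5% were higher, and 27.7% and 24.6% lower. Some of the 14 members reached 1 TPM only in knockdown libraries, so they passed the expression filter through the groups where they were high. For example, chr6:26044217-26044585 was at 0 in all 3 shScr libraries. The log2 changes of the 14 members ran from -0.07 to 2.80 with shCTDP1-#1 (median 1.31) and from -0.71 to 3.23 with shCTDP1-#2 (median 1.69). Histone genes are near-identical copies, so reads could have been divided among them in counting, and single-gene values are uncertain. Some intervals are also far longer than the RefSeq gene: 6866 against 480 bases for HIST1H2BJ, 2239 against 493 for HIST1H2AG and 14972 against 519 for HIST1H2AC. The intervals of HIST1H2AM and HIST1H2BO have the RefSeq length, and that of HIST1H2BC is shorter than in RefSeq. As background, the replication-dependent histone transcripts mostly lack a poly(A) tail.

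CCRL2 and CCR5AS were the fourth rising pair. CCRL2 (chr3:46448654-46454488), an atypical chemokine receptor, measured 19.1, 19.1 and 20.6 TPM in shScr, 32.7, 35.5 and 38.4 TPM in shCTDP1-#1, and 42.98, 46.4 and 42.3 TPM in shCTDP1-#2. The antisense transcript CCR5AS (chr3:46406446-46448550), 103 bases away, measured 8.87, 7.69 and 10.2 TPM in shScr, 19.1, 19.5 and 14.1 TPM in shCTDP1-#1, and 22.8, 21.8 and 19.02 TPM in shCTDP1-#2. Both were higher in all 6 knockdown libraries, by a log2 change of 0.83 ± 0.07 and 0.90 ± 0.13 with shCTDP1-#1 and 1.13 ± 0.07 and 1.17 ± 0.13 with shCTDP1-#2. Their difference was -0.07 ± 0.16 and -0.04 ± 0.16, with limma adjusted p of 0.727 and 0.852.

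Among falling pairs, DCAF16 and NCAPG moved by similar amounts. NCAPG (chr4:17812525-17846485), a subunit of the condensin complex that compacts mitotic chromosomes, measured 122, 123 and 127 TPM in shScr, 43.7, 46.1 and 53.9 TPM in shCTDP1-#1, and 79.7, 72.2 and 78.3 TPM in shCTDP1-#2. DCAF16 (chr4:17802278-17812381), a substrate receptor of a ubiquitin ligase, lies 143 bases away on the other strand and measured 32.1, 30.3 and 29.3 TPM in shScr, 10.4, 10.2 and 12.1 TPM in shCTDP1-#1, and 17.3, 17.01 and 17.4 TPM in shCTDP1-#2. Both were lowest with shCTDP1-#1, intermediate with shCTDP1-#2 and highest in shScr, without overlap between any 2 groups. The log2 changes were -1.41 ± 0.07 and -1.36 ± 0.07 with shCTDP1-#1, and -0.79 ± 0.07 and -0.68 ± 0.07 with shCTDP1-#2. NCAPG was the more abundant gene in all 9 libraries, and the difference between their changes was 0.05 ± 0.08 and 0.11 ± 0.08 (limma adjusted p = 0.589 and 0.272).

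IGFLR1 and U2AF1L4 are tandem, 10 bases apart. U2AF1L4 (chr19:36233365-36236346), related to a splicing factor that reads the 3′ splice site, measured 18.96, 26.3 and 20.7 TPM in shScr, 8.19, 8.44 and 7.16 TPM in shCTDP1-#1, and 13.4, 11.1 and 12.3 TPM in shCTDP1-#2. IGFLR1 (chr19:36230058-36233354), a receptor of the IGF-like family, measured 9.07, 12.98 and 12.2 TPM in shScr, 3.48, 2.96 and 2.96 TPM in shCTDP1-#1, and 8.59, 5.7 and 3.23 TPM in shCTDP1-#2. The knockdown libraries lay under the controls in both genes, with a wide spread of IGFLR1 among the shCTDP1-#2 libraries. The changes were -1.58 ± 0.25 and -1.35 ± 0.12 with shCTDP1-#1, and -0.93 ± 0.25 and -0.78 ± 0.12 with shCTDP1-#2.

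RPLP0 (chr12:120634489-120639038), which encodes a protein of the ribosomal stalk, measured 4064, 4406 and 4394 TPM in shScr, 2758, 2712 and 2648 TPM in shCTDP1-#1, and 2432, 2597 and 2526 TPM in shCTDP1-#2. The noncoding PXN-AS1 (chr12:120639094-120650941), 55 bases away and divergent, measured 9.14, 12.2 and 10.1 TPM in shScr, 4.66, 5.48 and 4.54 TPM in shCTDP1-#1, and 5.13, 4.73 and 7.25 TPM in shCTDP1-#2. RPLP0 was far more abundant than PXN-AS1, and both lay lower in all 6 knockdown libraries, by -0.66 ± 0.04 and -0.96 ± 0.15 with shCTDP1-#1 and by -0.77 ± 0.04 and -0.79 ± 0.15 with shCTDP1-#2 (log2 change). POGK (chr1:166808681-166825581), a transposase-derived zinc finger gene, measured 40.2, 41.01 and 42.9 TPM in shScr, 27.7, 27.3 and 25.4 TPM in shCTDP1-#1, and 30.7, 26.3 and 25.5 TPM in shCTDP1-#2. TADA1 (chr1:166825747-166845564), a subunit of the SAGA histone acetyltransferase complex, measured 12.1, 12.2 and 11.4 TPM in shScr, 5.18, 5.5 and 4.9 TPM in shCTDP1-#1, and 8.03, 7.28 and 6.49 TPM in shCTDP1-#2. The convergent POGK and TADA1, 165 bases apart at their ends, were both lower in every knockdown library, and TADA1 fell more with shCTDP1-#1 (difference -0.45 ± 0.10, limma adjusted p = 0.0036).

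The widest of these 4 splits was between ZBTB4 and POLR2A, divergent genes with a gap of 102 bases. The stretch between their RefSeq starts, 116 bases long, is given above. POLR2A (chr17:7387685-7417933) encodes the largest subunit of RNA polymerase II, which carries the domain that CTDP1 dephosphorylates, and measured 55.8, 46.9 and 41.3 TPM in shScr, 252, 241 and 337 TPM in shCTDP1-#1, and 158, 145 and 222 TPM in shCTDP1-#2. ZBTB4 (chr17:7362685-7387582), a zinc finger protein that binds methylated DNA, measured 30.6, 31.9 and 30.8 TPM in shScr, 18.5, 20.5 and 19.6 TPM in shCTDP1-#1, and 11.7, 10.7 and 11.2 TPM in shCTDP1-#2. POLR2A was higher in all 6 knockdown libraries while ZBTB4 was lower in all 6. The log2 change of POLR2A was 2.50 ± 0.19 with shCTDP1-#1 and 1.83 ± 0.19 with shCTDP1-#2, and that of ZBTB4 -0.65 ± 0.06 and -1.39 ± 0.06. Replicate 3 was the highest POLR2A library with both hairpins. Between the hairpins POLR2A differed by -0.67 ± 0.19 (limma adjusted p = 0.0191), a call lost without shCTDP1-#2 replicate 1 (adjusted p = 0.0673) or without shCTDP1-#2 replicate 2 (0.0584).

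SFXN2 (chr10:104474295-104503249), a mitochondrial sideroflexin, measured 10.4, 10.2 and 10.3 TPM in shScr, 3.02, 2.67 and 2.74 TPM in shCTDP1-#1, and 3.06, 2.84 and 3.17 TPM in shCTDP1-#2. WBP1L (chr10:104503727-104576021), the next gene in tandem 477 bases on, measured 22.6, 23.2 and 23.6 TPM in shScr, 39.7, 39.99 and 38.1 TPM in shCTDP1-#1, and 40.05, 39.9 and 36.6 TPM in shCTDP1-#2. SFXN2 fell and WBP1L rose with no overlap of the groups, and the 2 hairpins gave nearly equal values: -1.57 ± 0.10 and -1.49 ± 0.10 for SFXN2, 0.74 ± 0.05 and 0.72 ± 0.05 for WBP1L. COQ10A (chr12:56660642-56664750), a coenzyme Q binding protein, measured 20.2, 17.5 and 17.5 TPM in shScr, 38.9, 38.4 and 40.1 TPM in shCTDP1-#1, and 33.1, 35.9 and 34.9 TPM in shCTDP1-#2. CS (chr12:56665483-56694176), citrate synthase, which opens the tricarboxylic acid cycle, measured 119, 111 and 109 TPM in shScr, 68.4, 66.9 and 70.6 TPM in shCTDP1-#1, and 61.1, 58.5 and 59.3 TPM in shCTDP1-#2. The 2 genes are convergent with ends 732 bases apart, and COQ10A rose as CS fell, by 1.05 ± 0.07 against -0.71 ± 0.05 with shCTDP1-#1 and 0.88 ± 0.07 against -0.91 ± 0.05 with shCTDP1-#2.

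H1F0 (chr22:38201114-38203442), a linker histone typical of differentiated cells, measured 117, 122 and 122 TPM in shScr, 239, 236 and 231 TPM in shCTDP1-#1, and 184, 187 and 183 TPM in shCTDP1-#2. GCAT (chr22:38203912-38213183), an enzyme of threonine breakdown, lies 469 bases downstream in tandem and measured 15.7, 19.8 and 18.4 TPM in shScr, 8.19, 9.19 and 7.64 TPM in shCTDP1-#1, and 6.08, 7.79 and 5.52 TPM in shCTDP1-#2. H1F0 was higher and GCAT lower in every knockdown library. The changes were 0.96 ± 0.03 and -1.02 ± 0.13 with shCTDP1-#1, and 0.61 ± 0.03 and -1.35 ± 0.13 with shCTDP1-#2.

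**Figure D4:**
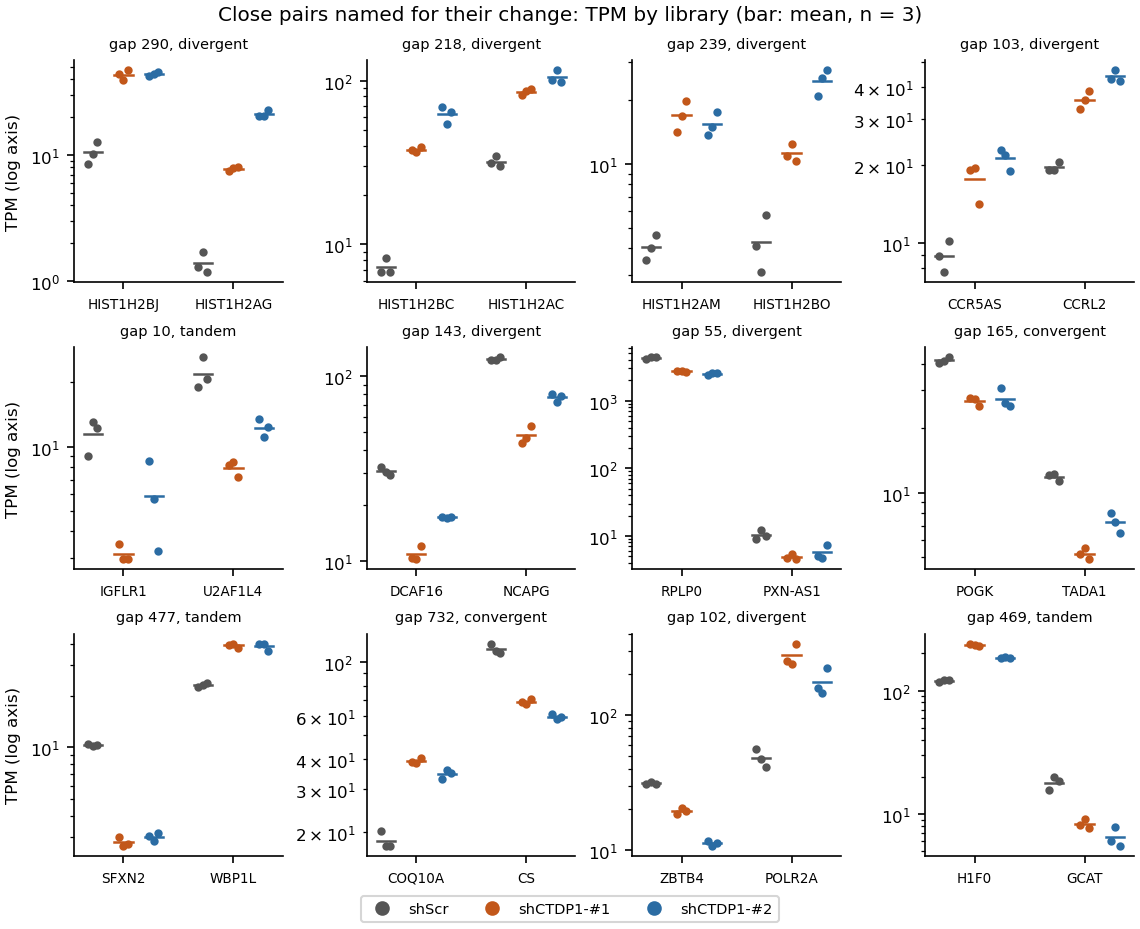
TPM by library (log axis; points are libraries, bars the mean of 3) for the 12 close pairs named for their change: rising together in the top row, falling together in the middle row, moving apart in the bottom row. Each panel title gives the gap in bases and the orientation; in ZBTB4 and POLR2A the first gene lies lower and the second higher in all 6 knockdown libraries.

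The other pairs were named without regard to their change. The 4 pairs whose lower member was most abundant come first. SRSF9 (chr12:120899471-120907596), a splicing factor of the SR family, measured 348, 359 and 360.2 TPM in shScr, 209, 216 and 206 TPM in shCTDP1-#1, and 348, 340.3 and 359 TPM in shCTDP1-#2. DYNLL1 (chr12:120907653-120936296), a dynein light chain, 56 bases away and divergent, measured 581, 659 and 640.4 TPM in shScr, 933, 920.3 and 913 TPM in shCTDP1-#1, and 880.2, 880.2 and 932 TPM in shCTDP1-#2. SRSF9 fell with shCTDP1-#1 (-0.76 ± 0.03, limma adjusted p = 3.1e-08), while with shCTDP1-#2 its libraries overlapped the controls (-0.03 ± 0.03, adjusted p = 0.506; -0.18, adjusted p = 0.00263 under median-of-ratios scaling and -0.12, 0.0278 under upper-quartile scaling). DYNLL1 rose with both (0.56 ± 0.05 and 0.52 ± 0.05, limma adjusted p = 2.24e-06 and 4e-06). The change within the pair differed between the hairpins by -0.77 ± 0.05 (limma adjusted p = 1.05e-06).

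TRMT112 (chr11:64083932-64085556), the partner protein of several methyltransferases, measured 380.1, 372 and 372 TPM in shScr, 431, 452 and 448 TPM in shCTDP1-#1, and 258, 276 and 282 TPM in shCTDP1-#2. PRDX5 (chr11:64085560-64089283), a peroxiredoxin that removes peroxides, starts 3 bases away on the other strand and measured 201, 217 and 227 TPM in shScr, 307, 297 and 298 TPM in shCTDP1-#1, and 392, 393 and 383 TPM in shCTDP1-#2. PRDX5 rose with both hairpins (0.48 ± 0.04 and 0.86 ± 0.04, limma adjusted p = 3.97e-06 and 7.5e-08). TRMT112 rose with shCTDP1-#1 (0.24 ± 0.04, limma adjusted p = 0.000294) and fell with shCTDP1-#2 (-0.46 ± 0.04, adjusted p = 2.68e-06), so the pair agreed in direction with 1 hairpin and disagreed with the other.

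GPX1 (chr3:49394609-49396033), a glutathione peroxidase, measured 393, 446 and 442 TPM in shScr, 663, 683 and 667 TPM in shCTDP1-#1, and 577, 638 and 615 TPM in shCTDP1-#2. RHOA (chr3:49396578-49450431), a small GTPase of the actin cytoskeleton, lies 544 bases on in tandem and measured 514, 533 and 529 TPM in shScr, 602, 608 and 589 TPM in shCTDP1-#1, and 595, 600.3 and 595 TPM in shCTDP1-#2. Both lay above the controls in all 6 knockdown libraries. The rise of GPX1 was 0.65 ± 0.05 and 0.51 ± 0.05 (limma adjusted p = 1.84e-06 and 1.11e-05). That of RHOA was 0.19 ± 0.03 and 0.18 ± 0.03 (adjusted p = 0.000163 and 0.000213), and its call with shCTDP1-#2 was lost under median-of-ratios scaling (0.03, adjusted p = 0.440) and upper-quartile scaling (0.09, adjusted p = 0.0601). TECR (chr19:14627897-14676792), a reductase of very long fatty acid synthesis, measured 304, 341 and 345 TPM in shScr, 252, 271 and 268 TPM in shCTDP1-#1, and 302, 310.0 and 289 TPM in shCTDP1-#2. NDUFB7 (chr19:14676890-14682874), a subunit of respiratory complex I, ends 97 bases from it and measured 285, 331 and 323 TPM in shScr, 328, 379.7 and 344 TPM in shCTDP1-#1, and 355, 389 and 392 TPM in shCTDP1-#2. TECR fell with shCTDP1-#1 (-0.32 ± 0.05, limma adjusted p = 0.000363), and the members' changes were unequal with both hairpins (0.48 ± 0.06 and 0.41 ± 0.06, adjusted p = 5.32e-05 and 0.000187). The call of TECR with shCTDP1-#2 (-0.13 ± 0.05, limma adjusted p = 0.0479) was lost without shScr replicate 2 (adjusted p = 0.145) or 3 (0.164), without shCTDP1-#1 replicate 2 (0.0570) or 3 (0.0608), and without shCTDP1-#2 replicate 1 (0.0853) or 3 (0.153). The change of NDUFB7 was 0.16 ± 0.07 (adjusted p = 0.061) and 0.27 ± 0.07 (adjusted p = 0.00525), the latter not called under median-of-ratios (0.13, adjusted p = 0.171) or upper-quartile scaling (0.18, adjusted p = 0.0564).

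With both means of at least 5 TPM, 4 pairs tied for the smallest gap, 1 base. TDP2 (chr6:24650205-24667261), which removes topoisomerase adducts from DNA ends, measured 64.7, 62.6 and 66.6 TPM in shScr, 85.9, 85.4 and 85.9 TPM in shCTDP1-#1, and 105, 106 and 107 TPM in shCTDP1-#2. ACOT13 (chr6:24667263-24705293), an acyl-CoA thioesterase, measured 19.6, 16.7 and 21.7 TPM in shScr, 11.8, 13.9 and 11.3 TPM in shCTDP1-#1, and 9.28, 12.7 and 10.03 TPM in shCTDP1-#2. These divergent genes moved apart: TDP2 rose (0.40 ± 0.04 and 0.70 ± 0.04, limma adjusted p = 5.28e-06 and 1e-07) and ACOT13 fell (-0.61 ± 0.13 and -0.80 ± 0.13, adjusted p = 0.00205 and 0.000321).

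METTL4 (chr18:2537524-2571508), of the adenine methyltransferase family, measured 26.7, 25.6 and 23.8 TPM in shScr, 15.2, 14.9 and 14.9 TPM in shCTDP1-#1, and 24.8, 26.9 and 30.99 TPM in shCTDP1-#2. NDC80 (chr18:2571510-2616634), the kinetochore protein that grips microtubules, measured 88.1, 89.9 and 92.5 TPM in shScr, 40.2, 36 and 38.8 TPM in shCTDP1-#1, and 49.4, 55.4 and 54.99 TPM in shCTDP1-#2. NDC80 fell with both hairpins (-1.21 ± 0.06 and -0.75 ± 0.06, limma adjusted p = 5.05e-08 and 1.67e-06). METTL4 fell with shCTDP1-#1 (-0.72 ± 0.08, adjusted p = 2.42e-05), whereas with shCTDP1-#2 its change was 0.11 ± 0.08 (adjusted p = 0.254) and its libraries overlapped the controls.

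NOP56 (chr20:2632791-2639039), a core protein of the small nucleolar ribonucleoproteins that guide ribosomal RNA methylation, measured 525, 425 and 459.7 TPM in shScr, 373, 348 and 379 TPM in shCTDP1-#1, and 301, 272 and 310.3 TPM in shCTDP1-#2. IDH3B (chr20:2639041-2644865), a subunit of mitochondrial isocitrate dehydrogenase, measured 139, 131 and 131 TPM in shScr, 118, 119.7 and 116 TPM in shCTDP1-#1, and 159, 161 and 159 TPM in shCTDP1-#2. The 2 genes are convergent. NOP56 fell with both hairpins (-0.35 ± 0.07 and -0.67 ± 0.07, limma adjusted p = 0.00188 and 2.2e-05), while IDH3B fell with shCTDP1-#1 (-0.18 ± 0.04, adjusted p = 0.0013) and rose with shCTDP1-#2 (0.26 ± 0.04, adjusted p = 9.51e-05).

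PRKDC and MCM4 are a known divergent pair that share a promoter region, as background. PRKDC (chr8:48685669-48872743), the catalytic subunit of the DNA-dependent protein kinase, measured 61.2, 50.4 and 50.4 TPM in shScr, 42.7, 40.1 and 58.3 TPM in shCTDP1-#1, and 42.7, 38.4 and 51.4 TPM in shCTDP1-#2. MCM4 (chr8:48872745-48890720), a subunit of the replicative helicase, measured 126, 162 and 128 TPM in shScr, 107, 114 and 119 TPM in shCTDP1-#1, and 90.2, 90.7 and 111 TPM in shCTDP1-#2. The libraries of PRKDC overlapped between groups (-0.21 ± 0.15 and -0.29 ± 0.15, limma adjusted p = 0.241 and 0.11; under median-of-ratios scaling -0.44 with shCTDP1-#2, adjusted p = 0.0172, and under upper-quartile scaling -0.38, 0.0332). Without shCTDP1-#1 replicate 3, both calls of PRKDC passed (-0.37, adjusted p = 0.0275, and -0.29, 0.0436), and without shCTDP1-#2 replicate 3 the one for shCTDP1-#2 did (-0.40, adjusted p = 0.0427). MCM4 fell with shCTDP1-#2 (-0.50 ± 0.10, limma adjusted p = 0.00156). With shCTDP1-#1 it changed by -0.28 ± 0.10 (adjusted p = 0.0369), a call lost without shScr replicate 2 (-0.16, adjusted p = 0.135), without shCTDP1-#1 replicate 1 (-0.24, 0.110) or without shCTDP1-#1 replicate 2 (-0.28, 0.0719). The change was not called unequal within the pair with either hairpin (-0.07 ± 0.16 and -0.21 ± 0.16, limma adjusted p = 0.722 and 0.265).

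The last 3 pairs are textbook neighbours. PPAT and PAICS encode enzymes of purine synthesis and are divergent with a gap of 125 bases. PPAT (chr4:57259528-57301781) measured 41.7, 41.9 and 37.8 TPM in shScr, 38.1, 39.5 and 41.2 TPM in shCTDP1-#1, and 24.5, 23.6 and 24.5 TPM in shCTDP1-#2. PAICS (chr4:57301907-57327534) measured 344, 358 and 366 TPM in shScr, 246, 239 and 254 TPM in shCTDP1-#1, and 176, 169.8 and 186 TPM in shCTDP1-#2. PAICS fell with both hairpins (-0.53 ± 0.04 and -1.002 ± 0.04, limma adjusted p = 1.79e-06 and 2.44e-08), and PPAT with shCTDP1-#2 (-0.72 ± 0.06, adjusted p = 1.89e-06). With shCTDP1-#1 the PPAT libraries overlapped the controls (-0.03 ± 0.06, adjusted p = 0.682).

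PSMB1 (chr6:170844205-170862429), a subunit of the proteasome core, measured 299.7, 318 and 329.6 TPM in shScr, 315, 316 and 315 TPM in shCTDP1-#1, and 365, 399.99 and 376 TPM in shCTDP1-#2. TBP (chr6:170863390-170881958), the TATA-binding protein, starts 960 bases away in the other direction and measured 17.4, 18.7 and 14.7 TPM in shScr, 22.2, 21.02 and 23.3 TPM in shCTDP1-#1, and 21.5, 20.5 and 24.6 TPM in shCTDP1-#2. TBP rose with both hairpins (0.37 ± 0.10 and 0.37 ± 0.10, limma adjusted p = 0.00633 and 0.00628). The change of PSMB1 was 0.00 ± 0.04 with shCTDP1-#1 (adjusted p = 0.9996) and 0.27 ± 0.04 with shCTDP1-#2 (adjusted p = 0.000309), the latter not called under median-of-ratios scaling (0.12, adjusted p = 0.0712).

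BRCA1 (chr17:41196312-41277500), which acts in repair of DNA breaks by homologous recombination, measured 29.4, 25.4 and 24.02 TPM in shScr, 24.8, 26.2 and 29.1 TPM in shCTDP1-#1, and 24.6, 23.5 and 29.1 TPM in shCTDP1-#2. NBR2 (chr17:41277627-41305688), a noncoding transcript that starts 126 bases away on the other strand, measured 3.25, 2.94 and 2.83 TPM in shScr, 4.42, 7.99 and 6.66 TPM in shCTDP1-#1, and 8.27, 10.7 and 9.77 TPM in shCTDP1-#2. BRCA1 libraries overlapped in all 3 groups (0.02 ± 0.10 and -0.03 ± 0.10, limma adjusted p = 0.849 and 0.796), while NBR2 rose with both hairpins (0.85 ± 0.17 and 1.40 ± 0.17, adjusted p = 0.0015 and 4.64e-05). The difference within the pair was 0.82 ± 0.18 and 1.43 ± 0.18 (limma adjusted p = 0.00251 and 6.42e-05).

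**Figure D5:**
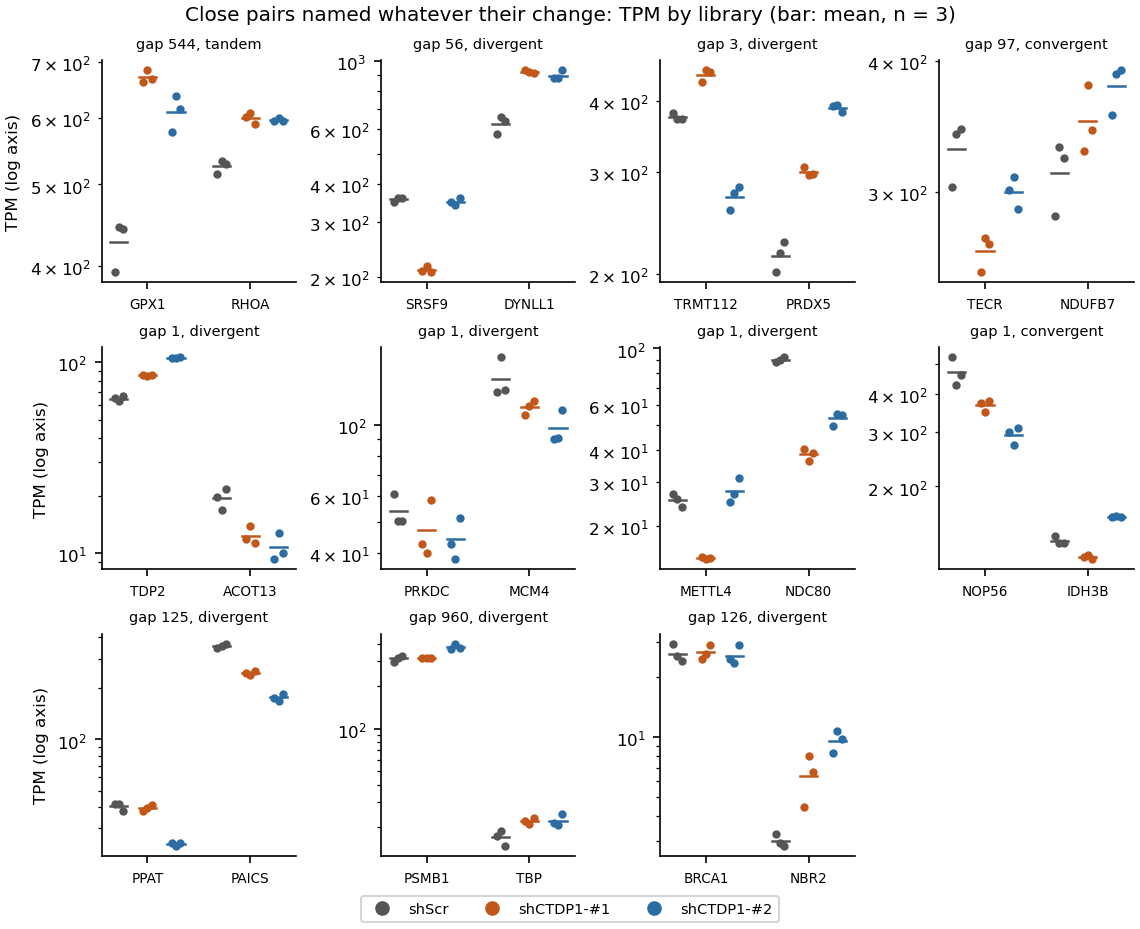
TPM by library (log axis; points are libraries, bars the mean of 3) for the 11 close pairs named for abundance, for the smallest gap or as textbook neighbours, with gap in bases and orientation above each panel. SRSF9 lies low only with shCTDP1-#1, and NBR2 is higher in all 6 knockdown libraries while its neighbour BRCA1 overlaps across groups.

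At the edge of the rule, 3 pairs had a gap of 1000 bases. The pair on chromosome 1 had means of 209 TPM in shScr, 156 TPM with shCTDP1-#1 and 116 TPM with shCTDP1-#2 for its first interval, and 118, 113 and 116 TPM for its second. The first interval of the pair on chromosome 18 had a mean of 14.4 TPM in shScr, 10.9 TPM with shCTDP1-#1 and 17.2 TPM with shCTDP1-#2, and its second 46.2, 65.9 and 49.9 TPM. The pair on chromosome 19 was near the limit for expression, with 0.15, 0.23 and 1.89 TPM for its first interval and 1.15, 0.72 and 1.14 TPM for its second. Just outside, 2 pairs had a gap of 1001 bases, both on chromosome 15. One had means of 6.39, 3.70 and 4.95 TPM for its first interval, and its second interval, 224 bases long, was at 0 in 2 shScr libraries and at 15.5 TPM in the third. The other had means of 1.28, 1.86 and 2.42 TPM for its first interval and 33.5, 30.8 and 41.5 TPM for its second.

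The 2 hairpins also differed from each other within close pairs. Both members were called in 369 pairs between shCTDP1-#2 and shCTDP1-#1, 154 both higher, 57 both lower and 158 in opposite directions, against 10.1%, 4.86% and 12.1% of all non-overlapping pairs. Same-direction pairs were 16.3% of the close pairs, against 15% of all non-overlapping pairs. Agreement was 57.2%, and 58.4% (230 of 394) at 1001 to 5000 bases, with r = 0.12 and 0.11. Under upper-quartile scaling 79 pairs were both higher and 117 both lower. The change within the pair differed between the hairpins in 612 close pairs (47.3%, against 46.5% of all non-overlapping pairs).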

How the data were processed

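RNA sequencing of 9 MDA-MB-231 libraries was used. STAR, RSEM and hg19 are named in the submitters' processing notes; no version or annotation is named there. Each library has 1 table deposited by the authors, of 57773 intervals with TPM values to 2 decimals. The unit was inferred, because the values of every library reach that unit's fixed sum within rounding. TPM keeps no depth, so no counting interval is given. Rows whose coordinates occurred more than once (2246, with 0.355% to 0.391% of TPM) were left out.

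log2(TPM + 1) was fitted with limma 3.58.1 (R 4.3.3, trend and robust, statmod 1.5.0) over 15011 intervals that reached 1 TPM in 3 or more libraries, all 9 libraries in 1 fit, with Benjamini-Hochberg adjustment over all of them and a threshold of 0.05. Fold changes on this scale understate changes of low intervals. The same fit was run on the difference of log2 values within each of the 10847 non-overlapping pairs. In data simulated for shCTDP1-#1 against shScr, the interval fit (15011 intervals) recovered 90.9%, 73.1% and 35.8% of changes of 2, 1.5 and 1.25-fold. The pair fit (10847 pairs) recovered 73.1%, 36.2% and 7.92%, so small differences within pairs were often missed in the simulation. It altered only 66 or 67 intervals and 101 to 105 pairs at each fold. In the real comparison 63.1% of intervals and 61.4% of pairs passed. The Benjamini-Hochberg cutoff depends on that share, so the simulated rates do not show how many differences were missed here.

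The files hold no names or strands, and no hg19 annotation was used here. The 46 genes were named from background knowledge of their hg19 position. All 46 lie on the same chromosome and all 23 pairs in the same order in RefSeq. In 16 of the 23 pairs no other gene starts between the members in RefSeq, and in the rest up to 6 do. The length of 41 intervals is within 20% of that in GENCODE v29. Sequences come from the RefSeq promoter table of GRCh38.p14, which held 42 of the 46 genes. Named were the first 4 pairs, ranked by the smallest of the 4 absolute log2 changes, whose members (both with a mean of at least 5 TPM) passed with both hairpins without overlap with shScr, separately for both higher, both lower and opposite; the 4 pairs with the most abundant lower member; the smallest gap; and 4 of 10 textbook pairs that met the rule. Members, lists and tests were chosen with earlier results of these data known. Of the marker genes, PTPRC and PECAM1 were not analysed here. Alternatives covered the pseudocount, filter, scaling, replicate block, each library left out, a 1.5-fold test, chains, overlapping intervals and the empirical Bayes options.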

Additional observations from a re-analysis of the deposited data

Results flagged for a closer look

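In 612 close pairs the change within the pair differed between the 2 hairpins, by limma on the within-pair difference of log2 values with an adjusted p under 0.05. This is 47.3% of close pairs, against 46.5% of all non-overlapping neighbours. TRMT112 moved in opposite directions with the 2 hairpins, and its log2 difference between shCTDP1-#2 and shCTDP1-#1 was -0.7044 (limma adjusted p = 3.05e-07). IDH3B also moved in opposite directions, with a difference of 0.4343 (adjusted p = 4.11e-06).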

How the results depend on the processing

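Depth is unknown and each group has 3 libraries, which limits the precision of every value here. No correlation, and no change of a named member that passed the test as reported or under the alternative, turned direction under the alternatives run; the split of higher and lower calls under other scalings is given with the counts. Of 2397 values of the named members under 17 alternatives, 2221 kept direction and side of the threshold, 116 lost the call, 31 gained it and 29, called in neither fit, changed sign; 72 of those lost came from the test against a 1.5-fold change.

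The changes of sign were in 12 log2 differences near 0. Under median-of-ratios scaling these came to -0.0325 for METTL4 with shCTDP1-#2, -0.0783 for PSMB1 and -0.0519 for BRCA1 with shCTDP1-#1, and, between the hairpins, -0.0454 for HIST1H2BJ, -0.0363 for POGK and -0.0682 for TBP. Under upper-quartile scaling the differences between the hairpins were -0.0842 for HIST1H2BJ, -0.0746 for POGK, -0.00407 for SFXN2 and -0.106 for TBP, and TBP came to -6.47e-05 with the pseudocount of 0.1 TPM. Leaving out each library in turn, BRCA1 ranged from -0.0373 to 0.105 with shCTDP1-#1, from -0.121 to 0.0487 with shCTDP1-#2 and from -0.144 to 0.00530 between the hairpins, and PSMB1 from -0.0368 to 0.0317 with shCTDP1-#1. Between the hairpins the ranges were -0.0460 to 0.0840 for HIST1H2BJ, -0.0473 to 0.0835 for POGK, -0.194 to 0.0805 for PRKDC, -0.0190 to 0.00280 for RHOA, -0.0733 to 0.0524 for TBP and -0.0382 to 0.0253 for WBP1L. The cause was not tested.

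Test against a 1.5-fold change, given as same direction, opposite directions and unequal change: in close pairs 18, 10 and 273 for shCTDP1-#1, 24, 7 and 282 for shCTDP1-#2, and 3, 0 and 101 between the hairpins; at 1001 to 5000 bases 18, 8 and 258, then 26, 9 and 273, then 4, 0 and 114. The drop follows from the stricter null value. Pairs that no other interval overlaps, in the same order: close pairs 82, 77 and 204 for shCTDP1-#1, 101, 61 and 198 for shCTDP1-#2, and 57, 35 and 148 between the hairpins; at 1001 to 5000 bases 77, 45 and 178, then 84, 55 and 181, then 62, 45 and 135. Fewer pairs enter there (320 close pairs). With intervals of a mean of at least 5 TPM, 243 close pairs moved in the same direction with shCTDP1-#2, and 804 close pairs enter there. Agreement with that hairpin was then 54.6%, against 55.5% at 1001 to 5000 bases.

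The correlation of log2 changes in close pairs was 0.0668 for shCTDP1-#1 and 0.0866 for shCTDP1-#2 with a pseudocount of 0.1 TPM, 0.0759 for shCTDP1-#2 at a mean of at least 5 TPM, 0.0815 for shCTDP1-#1 with each interval in 1 pair, and 0.0752 and 0.0808 without the histone cluster, an alternative chosen after seeing the data. Without overlapping intervals it was 0.183 for shCTDP1-#2 and 0.171 between the hairpins. At 1001 to 5000 bases it was 0.112 for shCTDP1-#2 with the pseudocount of 0.1 TPM. At a mean of at least 5 TPM it was 0.140 for shCTDP1-#2 and 0.0362 between the hairpins. With each interval in 1 pair it was 0.0759, 0.112 and 0.0791 for shCTDP1-#1, shCTDP1-#2 and between the hairpins, and without overlapping intervals 0.159 between the hairpins. The cause of these moves was not tested.

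Leaving out each library in turn, close pairs gave 296 to 338 same-direction, 218 to 258 opposite and 743 to 796 unequal pairs for shCTDP1-#1, 328 to 368, 223 to 247 and 746 to 815 for shCTDP1-#2, and 163 to 212, 132 to 155 and 520 to 611 between the hairpins, with r of 0.0867 to 0.0992, 0.102 to 0.111 and 0.107 to 0.120. At 1001 to 5000 bases the counts were 259 to 310, 208 to 246 and 710 to 794, then 288 to 335, 222 to 258 and 694 to 768, then 177 to 223, 134 to 165 and 533 to 608, with r of 0.0860 to 0.0985, 0.117 to 0.131 and 0.0953 to 0.111.

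With the replicate number as a block, close pairs gave 335 same-direction, 251 opposite and 792 unequal pairs for shCTDP1-#1, 363, 249 and 800 for shCTDP1-#2, and 211, 153 and 595 between the hairpins. Residuals of same-numbered libraries correlated by -0.01 to 0.05 and those of other numbers by -0.05 to 0.02. These correlations were small and their ranges overlapped, but 8 of 9 libraries correlated best with their own number. Whether the numbers mark a pairing is thus undecided. The block added calls for NDUFB7 with shCTDP1-#1 (adjusted p = 0.00587) and, between the hairpins, for NDUFB7 (0.0405) and GCAT (0.0219).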
